A study of Mus musculus with 2 samples.

Results

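The genes Gria1 to Gria4 and Grik1 to Grik5 encode the pore-forming subunits of AMPA and kainate receptors, the fast ionotropic receptors for glutamate. They were taken by gene symbol from the 32285 features of one single-nucleus library of mouse eye tissue, and all 9 were present. Their summed UMIs (counts of single RNA molecules) over the kept nuclei lay between 2071 for Grik4 and 28614 for Grik1. Levels are given across classes of nuclei named from marker genes and, for Müller glia, across the separate pieces of tissue on the chip.

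The study concerned heterozygous Prph2C213Y/+ mice on a C57BL/6J background and wild-type mice matched to them by age and sex, with spatial transcriptomics at 6 months. The library analysed here, T1, has no genotype in the labels. It was described as untreated and as made from nuclei of a single 10-micrometre section of fresh-frozen retina from a single eye. Positions came from SeekSpace, which ties the barcode of each nucleus to a place on a capture chip. No genotype was inferred, there were no replicates, and no p-value was computed.

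Both receptor families assemble as tetramers that open a cation pore when glutamate binds. In the retina, photoreceptors release glutamate onto bipolar and horizontal cells. OFF bipolar cells and horizontal cells answer through AMPA and kainate receptors, while ON bipolar cells answer photoreceptors through a metabotropic receptor and meet other subunits elsewhere. Amacrine and ganglion cells receive glutamate from bipolar terminals largely through AMPA and NMDA receptors.

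The library held 17285 barcodes and 55843593 UMIs. Of these barcodes, 16867 nuclei were kept, with a median of 1811 UMIs, and they lay in 4 pieces with 4457, 4145, 3695 and 4570 nuclei, although the labels describe one section. The 20 named classes held between 54 nuclei (horizontal-like) and 5862 (rod-like), and each class had at least 3 detected markers of its own. Summed markers, in CPM (the UMIs of a gene scaled by all UMIs of a class), were highest in their own class for all classes but ON cone bipolar-like nuclei, whose list shares genes with rod bipolar cells: 8013 CPM, against 13183 CPM in rod bipolar-like nuclei. By ratio the closest of the others were rod-like nuclei at 31309 CPM, against 25035 CPM in cone-like nuclei, followed by GABAergic amacrine-like nuclei at 2627 CPM, against 2031 CPM in starburst amacrine-like nuclei, which also make GABA. Unnamed nuclei made up 4.52% and amacrine-like nuclei that could not be placed 1.33%. Scrublet, a doublet caller, marked 0 nuclei, so doublets remain. Unnamed nuclei held 32.7% of all Grik1 UMIs, 23.4% of Gria1 and 17.8% of Grik3, mostly in a cluster of 314 nuclei with bipolar and Müller markers together and a median of 8202 UMIs.

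Grik1 stood out in OFF cone bipolar-like nuclei and Grik2 in glycinergic amacrine-like nuclei, and the other subunit genes were shared between several classes. The call required the highest class, taken at its lower bound, to reach at least 2 times each other named class taken at its upper bound. By that rule 2 of the 9 members were called, Grik1 and Grik2, beside 10.4% of the 18326 genes measured at 20 UMIs or more. The median ratio of the highest class to the next was 1.35 for the 9 members and 1.31 for all measured genes. Bounds are exact Poisson 95% intervals, which cover counting error only and are too narrow where a few nuclei hold most UMIs.

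**Figure D1:**
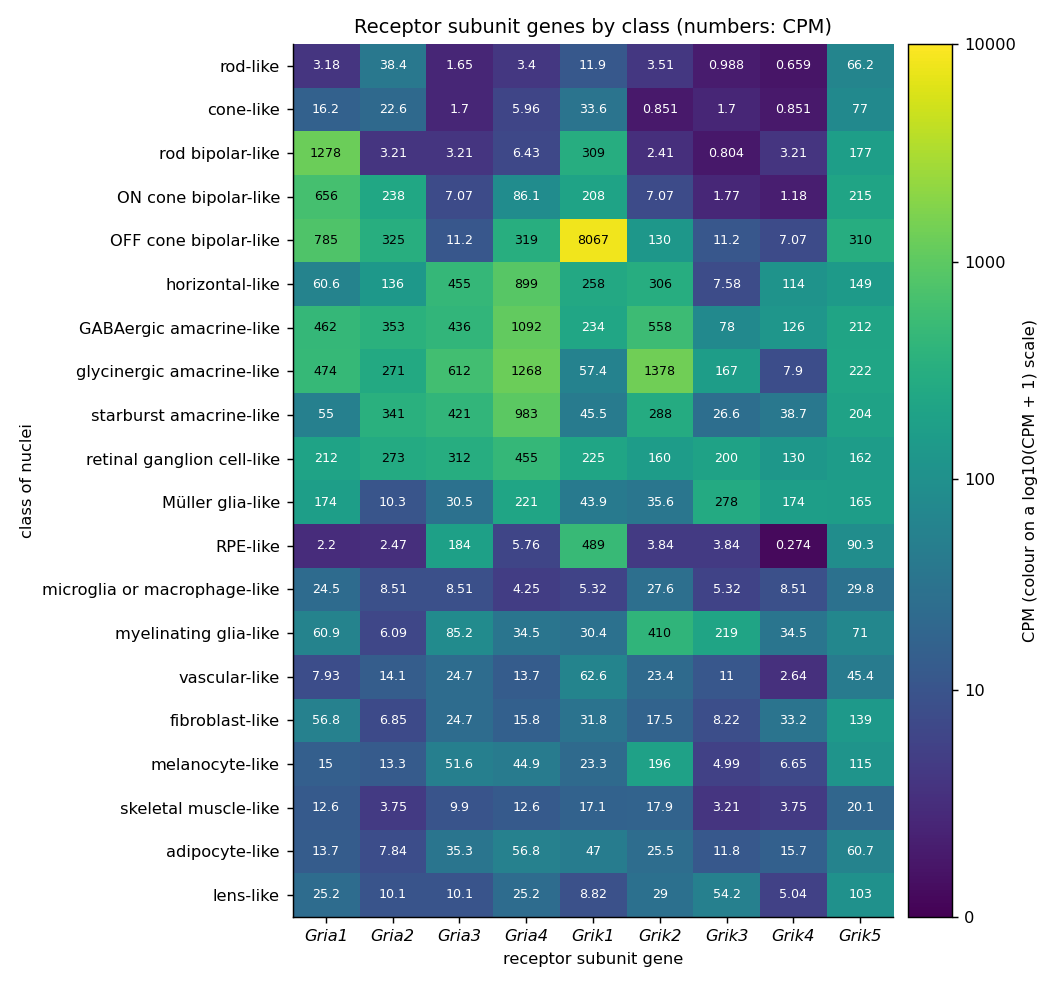
Pooled level of each receptor subunit gene (columns) in each named class of nuclei (rows), in CPM, coloured on a log scale with the CPM printed in each cell. Grik1 in OFF cone bipolar-like nuclei, at 8067 CPM, is the brightest cell, and the photoreceptor rows, at the top, stay below 100 CPM in every column.

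Gria1, an AMPA subunit gene studied for its part in synaptic plasticity, was led among the named classes by the 3 bipolar-like ones. It was highest in rod bipolar-like nuclei, the ON cells that carry rod signals inward. Outside this ranking, the 225 amacrine-like nuclei that could not be placed held 1513 Gria1 UMIs among 910058 UMIs. Rod bipolar-like nuclei held 1590 among 1244448. Gria1 (ENSMUSG00000020524, chromosome 11, 57011571 to 57330244, GRCm38.p6) stood at 1278 CPM (1216 to 1342) in 395 rod bipolar-like nuclei, with 1206, 1491, 1296 and 1184 CPM in pieces 1 to 4. OFF cone bipolar-like nuclei followed at 785 CPM, with 724, 770, 979 and 646 CPM, and ON cone bipolar-like nuclei at 656 CPM, with 670, 599, 781 and 577 CPM. Rod bipolar-like nuclei lay above both in each of the 4 pieces, and the 3 intervals did not overlap. Glycinergic and GABAergic amacrine-like nuclei, at 474 and 462 CPM, had overlapping intervals, while starburst amacrine-like nuclei stood at 54.99 CPM. At least 1 Gria1 UMI was found in 84.6% of rod bipolar-like nuclei (median depth 3247 UMIs), against 0.478% of rod-like nuclei (median depth 1066.5 UMIs). With each nucleus thinned to 500 UMIs these shares were 37.9 and 0.213%.

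The class means of Gria1 covered sub-clusters with very different levels. Among the 6 OFF cone bipolar-like sub-clusters Gria1 ran between 54.2 CPM in sub-cluster 10 and 1497 CPM in sub-cluster 7. Among the 7 ON cone bipolar-like sub-clusters it ran between 86.4 CPM in sub-cluster 9 and 1282 CPM in sub-cluster 11. The amacrine-like nuclei of highest Gria1 were not in a named class: 85 nuclei led by Trhde and Shisa9 stood at 4551 CPM (4306 to 4806). Among glycinergic amacrine-like sub-clusters, one of 24 nuclei with Trhde and Shisa9 also among its leading genes reached 3137 CPM, and the lowest, of 278 nuclei, stood at 39.5 CPM.

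Gria2, whose edited product makes AMPA receptors nearly impermeable to calcium, was spread over inner retinal neurons and barely detected in rod bipolar-like nuclei. Gria2 (chromosome 3, 80681450 to 80804227) stood at 353 CPM (337 to 370) in GABAergic amacrine-like, 341 CPM in starburst amacrine-like and 325 CPM in OFF cone bipolar-like nuclei, whose intervals overlapped in that order. Retinal ganglion cell-like, glycinergic amacrine-like and ON cone bipolar-like nuclei followed at 273, 271 and 238 CPM. In the 395 rod bipolar-like nuclei only 4 Gria2 UMIs were found, or 3.21 CPM (0.876 to 8.23), so that ON cone bipolar-like nuclei at 238 CPM (215 to 262) and rod bipolar-like nuclei had intervals far apart. Rod-like nuclei held 350 Gria2 UMIs at 38.4 CPM, with 30.6, 35.9, 25.6 and 53.6 CPM in pieces 1 to 4. The share of nuclei with a Gria2 UMI was 70.5% in GABAergic amacrine-like nuclei (median depth 4650 UMIs) against 4.95% in rod-like nuclei, and 16.6 against 2.09% after thinning.

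Gria3, the X-linked AMPA subunit gene, and Gria4, a subunit gene of fast-gating AMPA receptors, followed amacrine-like and horizontal-like nuclei. Gria3 (chromosome X, 41400819 to 41678601) stood at 612 CPM (583 to 642) in glycinergic amacrine-like nuclei, above horizontal-like, GABAergic amacrine-like and starburst amacrine-like nuclei at 455, 436 and 421 CPM, which overlapped. Retinal ganglion cell-like nuclei stood at 312 CPM. In rod bipolar-like, ON cone bipolar-like and OFF cone bipolar-like nuclei it was 3.21, 7.07 and 11.2 CPM. Gria3 was also found in the RPE, the pigmented epithelium behind the photoreceptors: RPE-like nuclei stood at 184 CPM (171 to 199), with 139, 220, 249 and 134 CPM in the pieces, and 36.5% of them had a UMI against 0.256% of rod-like nuclei. The median depth of RPE-like nuclei was 2958 UMIs, and the thinned shares were 6.17 and 0.107%.

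For Gria4 (chromosome 9, 4417893 to 4796234) glycinergic amacrine-like nuclei led at 1268 CPM (1226 to 1310), ahead of GABAergic amacrine-like nuclei at 1092 CPM, starburst amacrine-like nuclei at 983 CPM and horizontal-like nuclei at 899 CPM. Starburst amacrine-like and horizontal-like nuclei overlapped, and retinal ganglion cell-like nuclei came next at 455 CPM (433 to 478). In each piece all 4 leading classes lay above the ganglion cell-like nuclei: their lowest value in any piece was 743 CPM, in horizontal-like nuclei of piece 2, and the highest of ganglion cell-like nuclei was 482 CPM. The bipolar-like classes were graded, with 319 CPM in OFF cone bipolar-like, 86.1 CPM in ON cone bipolar-like and 6.43 CPM in rod bipolar-like nuclei. Müller glia-like nuclei stood at 221 CPM, with 196, 222, 211 and 284 CPM in pieces 1 to 4, and 39.7% of them had a Gria4 UMI against 0.529% of rod-like nuclei (10.9 against 0.231% after thinning).

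The makeup of AMPA subunit RNA therefore differed between classes. Shares of the UMIs of the 4 Gria genes are not corrected for transcript length, so each gene's share is compared between classes and not with the other genes. Gria1 made up 99.004% of Gria UMIs in rod bipolar-like nuclei (1606 UMIs in all), 66.5% in ON cone bipolar-like, 54.5% in OFF cone bipolar-like and 3.05% in starburst amacrine-like nuclei. The Gria2 share was 0.249% (0.0679 to 0.636%) in rod bipolar-like nuclei against 24.1% in ON cone bipolar-like and 22.6% in OFF cone bipolar-like nuclei. Gria2 took its highest share in rod-like nuclei, 82.4% of 425 UMIs. Gria4 took 58.0% in horizontal-like and 54.6% in starburst amacrine-like nuclei, against 36.3% in ganglion cell-like nuclei, and Gria3 took 94.6% in RPE-like nuclei.

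**Figure D2:**
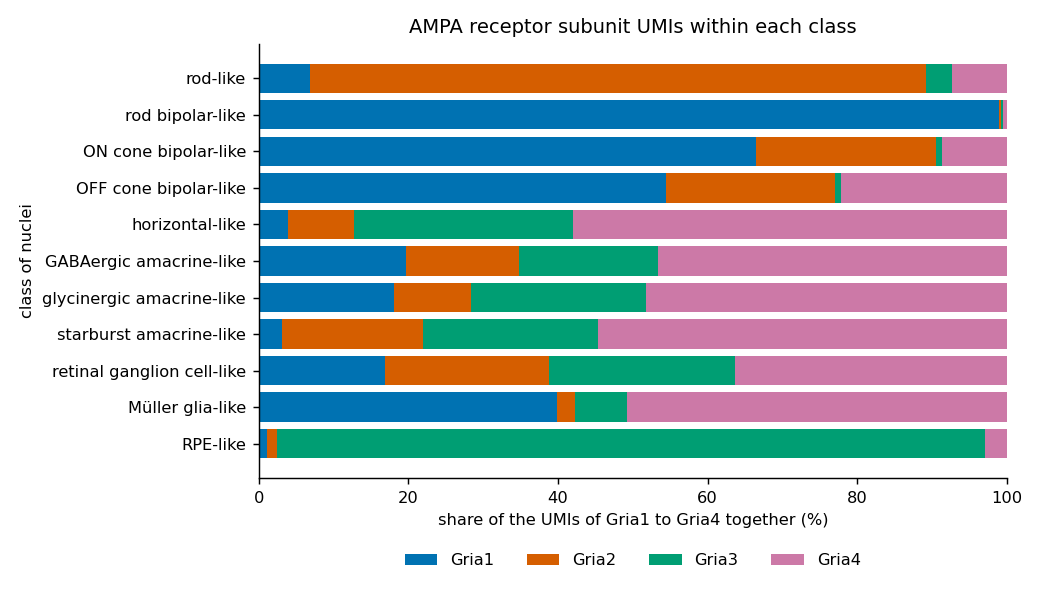
Share of the UMIs of Gria1 to Gria4 together (horizontal axis, percent) held by each gene in each class of nuclei (bars), not corrected for transcript length. Rod bipolar-like nuclei are filled almost wholly by Gria1, RPE-like nuclei by Gria3 and rod-like nuclei mostly by Gria2.

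Among kainate subunit genes, Grik1, a subunit of the receptors through which OFF bipolar cells of several mammals answer cones, marked OFF cone bipolar-like nuclei. Grik1 (ENSMUSG00000022935, chromosome 16, 87895901 to 88290863) stood at 8067 CPM (7932 to 8203) in 498 OFF cone bipolar-like nuclei, and the pieces gave 8111, 7465, 8448 and 8221 CPM. All 4 pieces lay close together, and 91.4% of these nuclei had a Grik1 UMI (median depth 3155 UMIs), against 1.19% of rod-like nuclei (74.0 against 0.515% after thinning). The next class, RPE-like, stood at 489 CPM, a ratio of 16.5. Rod bipolar-like and horizontal-like nuclei, at 309 and 258 CPM, overlapped. ON cone bipolar-like nuclei stood at 208 CPM, but 5 of their 535 nuclei held 61.8% of the Grik1 UMIs, and without these 5 the level was 81.2 CPM. Without the 5 nuclei that hold most Grik1 UMIs in every class, OFF cone bipolar-like nuclei stood at 7758 CPM and RPE-like nuclei at 403 CPM.

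Grik1 divided the OFF cone bipolar-like sub-clusters, and its auxiliary subunit gene Neto1 was low where Grik1 was highest. Sub-clusters 14, 7 and 10, with 55, 108 and 75 nuclei, stood at 17112, 16044 and 13112 CPM of Grik1, and sub-clusters 15, 8 and 13, with 105, 67 and 88 nuclei, at 4256, 1064 and 813 CPM. Neto1 stood at 58.4, 6.71 and 12.5 CPM in sub-clusters 14, 7 and 10, and at 2920, 429 and 269 CPM in sub-clusters 15, 8 and 13. The 3 sub-clusters of high Grik1 were thus those of low Neto1, although Grik1 and Neto1 were both high in sub-cluster 15. Sub-cluster 10, led by Kcnh7 and the OFF cone bipolar marker Erbb4, combined high Grik1 with Gria1 at 54.2 CPM, while sub-clusters 14 and 7 had Gria1 at 1216 and 1497 CPM. Sub-cluster 8 held Grik2 at 421 CPM, against 23.5 to 196 CPM in the other OFF cone bipolar-like sub-clusters. The ON cone bipolar-like sub-clusters lay between 27.7 and 593 CPM of Grik1 and the rod bipolar-like ones at 303 and 355 CPM, so the lowest OFF cone bipolar-like sub-cluster was above each of them. A pair of unnamed bipolar sub-clusters, of 131 and 80 nuclei, stood at 1455 and 1713 CPM. The receptor genes and the auxiliary genes were left out of the clustering that made these sub-clusters.

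**Figure D3:**
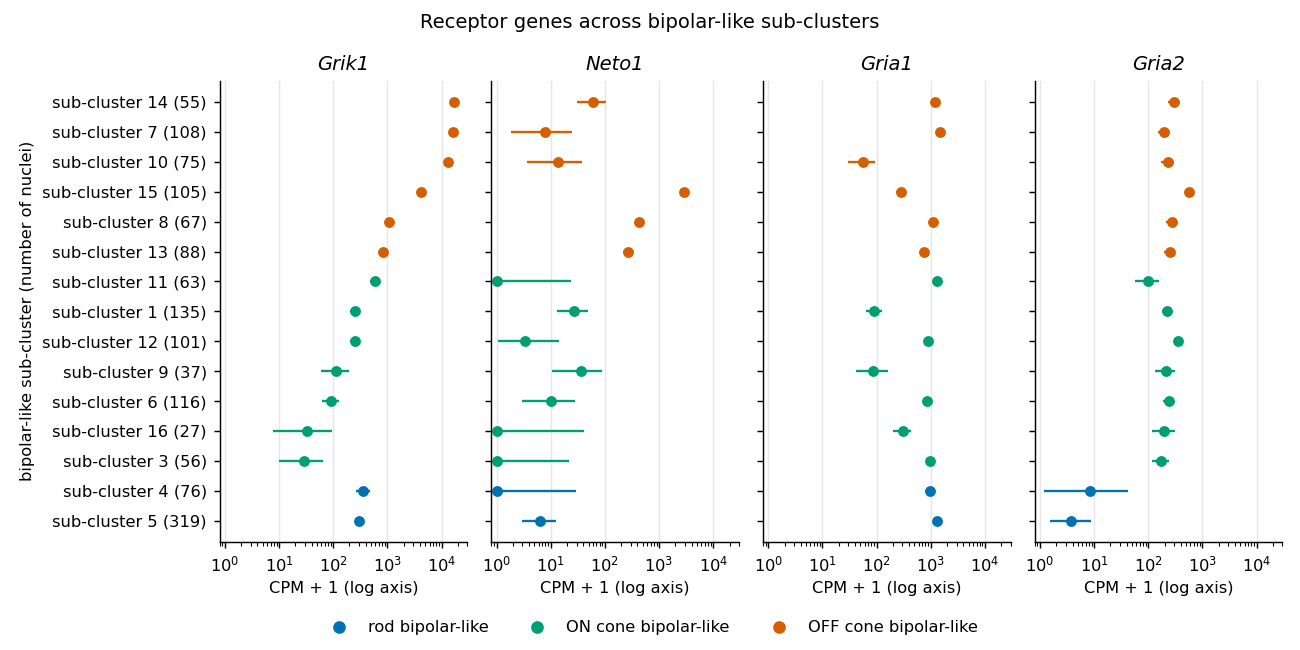
Levels of Grik1, Neto1, Gria1 and Gria2 (panels, CPM + 1 on a log axis) in each named bipolar-like sub-cluster (rows, with the number of nuclei), with bars for exact Poisson 95% intervals and colours for the class. The OFF cone bipolar-like rows are above the others for Grik1, with 813 to 17112 CPM, and the rod bipolar-like rows are set apart by Gria2, at 2.70 and 7.56 CPM.

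The RPE-like level of Grik1 came from a minority of nuclei. At least 1 Grik1 UMI was found in 169 of 657 RPE-like nuclei, 25.7% (12.0% after thinning), and the highest single nucleus held 124. The pieces gave 192, 816, 482 and 293 UMIs, or 220, 1083, 484 and 287 CPM, in 135, 154, 126 and 242 nuclei. Piece 2 was highest and piece 1 lowest, a ratio of 4.93 that passed the same 2-times rule between pieces, as 1.08% of the 10255 genes measured in RPE-like nuclei did. The summed OFF cone bipolar markers in these RPE-like nuclei were low, with 21.8, 19.9, 20.1 and 6.86 CPM in pieces 1 to 4 against 1632 CPM in OFF cone bipolar-like nuclei. Median depth moved with the pieces, at 2696, 3426.5, 4103 and 1946 UMIs, and its part in the result was not tested.

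Grik2, a widely used kainate subunit gene, was led by glycinergic amacrine-like nuclei, the narrow-field inhibitory interneurons. Grik2 (chromosome 10, 49093680 to 49790161) stood at 1378 CPM (1335 to 1423) in 710 glycinergic amacrine-like nuclei, with 1226, 1347, 1455 and 1590 CPM in the pieces, against 558 CPM in GABAergic amacrine-like nuclei, with 525, 536, 582 and 600 CPM. The groups did not overlap in any piece, and the ratio was 2.47. Myelinating glia-like nuclei followed at 410 CPM, and their interval overlapped with that of horizontal-like nuclei at 306 CPM, which in turn overlapped with starburst amacrine-like nuclei at 288 CPM. Melanocyte-like nuclei stood at 196 CPM. The share of nuclei with a UMI was 88.7% in glycinergic amacrine-like (median depth 3792.5 UMIs) against 0.495% in rod-like nuclei, and 43.7 against 0.213% after thinning. When all bipolar-like and all amacrine-like nuclei were each taken as 1 class, the ratio was 1.88 and Grik2 was not called, nor was it after thinning, at a ratio of 2.48.

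Within glycinergic amacrine-like nuclei the members differed by sub-cluster. Grik2 was highest in sub-cluster 10, 64 nuclei with Vwa5b1, Scube1 and Ebf3 as leading genes, at 4643 CPM, and lowest in sub-cluster 15 at 508 CPM. Grik3 was high in sub-cluster 7 alone among the 8, with 1155 CPM in 93 nuclei against 7.26 to 171 CPM in the others. Gria3 ran between 13.9 CPM in sub-cluster 10 and 1025 CPM in sub-cluster 4, while Gria4 stayed between 919 and 1605 CPM and Gria2 between 210.004 and 490 CPM. Sub-cluster 4, the largest with 278 nuclei, had the lowest Gria1 (39.5 CPM) and Grik3 (7.26 CPM) and the highest Gria3 of the 8.

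Grik3, whose receptors have a low affinity for glutamate, was highest in Müller glia-like nuclei, with myelinating glia-like and ganglion cell-like nuclei close behind. Grik3 (ENSMUSG00000001985, chromosome 4, 125490259 to 125714173) stood at 278 CPM (255 to 302) in 625 Müller glia-like nuclei, 219 CPM (179.8 to 265) in myelinating glia-like, 199.8 CPM (185 to 215) in retinal ganglion cell-like and 167 CPM (152 to 182) in glycinergic amacrine-like nuclei. Müller glia-like and myelinating glia-like intervals overlapped, as did those of myelinating glia-like and ganglion cell-like nuclei. The second place of myelinating glia-like nuclei rested on 5 nuclei, which held 38.9% of their Grik3 UMIs: without the top 5 of each class they stood at 148 CPM, below ganglion cell-like nuclei at 180.3 CPM. Photoreceptor-like and bipolar-like classes lay between 0.804 and 11.2 CPM. A Grik3 UMI was found in 28.8% of Müller glia-like (median depth 3004 UMIs), 34.0% of ganglion cell-like and 0.154% of rod-like nuclei, or 10.8, 10.2 and 0.0533% after thinning. The order of the leading classes rested on piece 2: without it myelinating glia-like nuclei led Müller glia-like nuclei, whose ratio to them was 0.754. That lead rested on few nuclei, since pieces 1, 3 and 4 held 20, 23 and 39 myelinating glia-like nuclei, against 95 in piece 2.

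Grik4 and Grik5 encode the high-affinity subunits that join the products of Grik1 to Grik3 in mixed receptors. Grik4 (chromosome 9, 42518182 to 42945000) stood at 174 CPM (156 to 194) in Müller glia-like nuclei, with 140, 249, 143 and 164 CPM in the pieces. Retinal ganglion cell-like, GABAergic amacrine-like and horizontal-like nuclei, at 130, 126 and 114 CPM, overlapped with one another, and the remaining classes were at 38.7 CPM or less, with glycinergic amacrine-like nuclei at 7.90 CPM. Grik5 (chromosome 7, 25009849 to 25075694) was the broadest member, with 310 CPM (284 to 338) in OFF cone bipolar-like nuclei and a lowest level of 20.1 CPM in skeletal muscle-like nuclei. Glycinergic amacrine-like, ON cone bipolar-like, GABAergic amacrine-like and starburst amacrine-like nuclei lay between 204 and 222 CPM and overlapped. Grik5 was also found in rod-like nuclei, at 66.2 CPM, where 8.17% of nuclei had a UMI. Its annotated span overlaps Zfp574, and no source used here states whether counting used strand, so reads of the overlap are uncertain between these genes.

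In Müller glia, the radial glia that take up glutamate in the retina, Grik3 differed between the pieces of tissue. Müller glia-like nuclei held 56, 238, 180 and 64 Grik3 UMIs in pieces 1 to 4, or 92.1, 452, 358 and 214 CPM, in 204, 162, 143 and 116 nuclei. Pieces 2 and 3 were high, piece 1 was low and piece 4 lay between. The place of piece 4 was less firm: among nuclei with at least 10 of their 20 nearest neighbours in a retinal class it stood at 130.5 CPM (89.8 to 183), which overlapped with piece 1 at 88.9 CPM (65.1 to 119). The share of nuclei with a Grik3 UMI followed, at 11.3% (7.28 to 16.4%), 46.9% (39.0 to 54.9%), 42.7% (34.4 to 51.2%) and 17.2% (10.9 to 25.4%). After thinning to 500 UMIs it was 4.06, 16.1, 17.7 and 6.14%. The ratio of piece 2 to piece 1 was 4.91 and passed the 2-times rule, as 1.73% of the 9812 genes measured in Müller glia-like nuclei did. After thinning the ratio was 4.40 and did not pass. No piece has a label that places it in a group.

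The levels of pieces 2 and 3 were spread over more nuclei than those of pieces 1 and 4. The 5 nuclei with most Grik3 UMIs held 31 of 56, 65 of 238, 43 of 180 and 34 of 64 UMIs in pieces 1 to 4. Without them the pieces stood at 43.0, 344, 285 and 106 CPM, and the ratio of piece 2 to piece 1 was 8.00. Grik3 UMIs were found in 23, 76, 61 and 20 nuclei of the pieces, so this removal took a larger part of pieces 1 and 4. The higher ratio follows from that and adds no weight to the difference. Of 9 Müller glia-like sub-clusters, sub-clusters 5 and 8 (16 and 22 nuclei) had the astrocyte markers as their best list and sub-cluster 6 (14 nuclei) the melanocyte markers. Without these, the Grik3 levels of pieces 1 to 4 were 92.4, 544, 398 and 225 CPM, and 10.7, 53.6, 43.7 and 17.9% of nuclei had a UMI. The ratio was then 5.89, and 0.342% of 9054 measured genes passed the rule. In all 6 remaining sub-clusters piece 1 was below both piece 2 and piece 3. Its interval overlapped with that of piece 2 in sub-cluster 0, of piece 3 in sub-cluster 1 and of both in sub-cluster 4. Piece 4 had no fixed place: it was lowest in sub-clusters 0 and 3, at 20.1 CPM and at 0 UMIs in 13 nuclei (upper bound 122 CPM), and highest in sub-clusters 4 and 7, at 666 and 378 CPM. In sub-clusters 1, 2, 3, 4 and 7 the interval of piece 4 overlapped with that of another piece, and only in sub-cluster 0 did it not. The leading genes of sub-clusters 4 and 7 were partly those of other classes. They included the neuronal genes Asic2, Ralyl and Nrg3 in sub-cluster 4 and the rod genes Sag, Pde6a and Pde6b in sub-cluster 7. The summed Müller markers of sub-clusters 4 and 7, at 12803 and 10941 CPM, were the lowest of the 6.

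**Figure D4:**
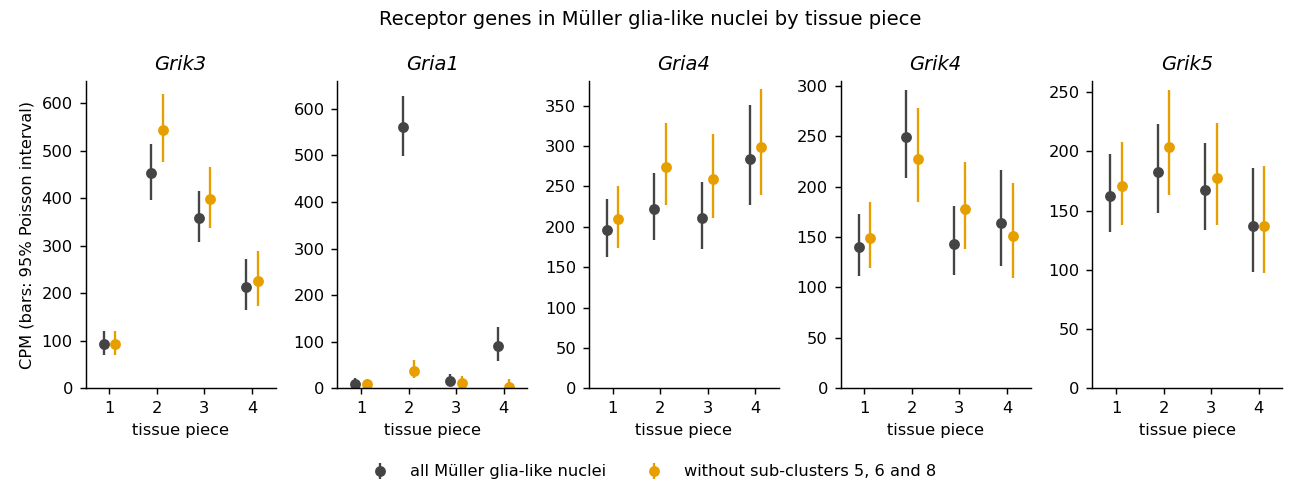
Levels of Grik3, Gria1, Gria4, Grik4 and Grik5 (panels, CPM) in Müller glia-like nuclei by tissue piece (horizontal axis), with bars for exact Poisson 95% intervals, for all Müller glia-like nuclei (dark) and without the sub-clusters whose best marker list was another class (orange). Grik3 in pieces 2 and 3 stays above piece 1 in both, at 544 and 398 CPM against 92.4 CPM without those sub-clusters, while the Gria1 level of piece 2 drops to 37.5 CPM.

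**Figure D5:**
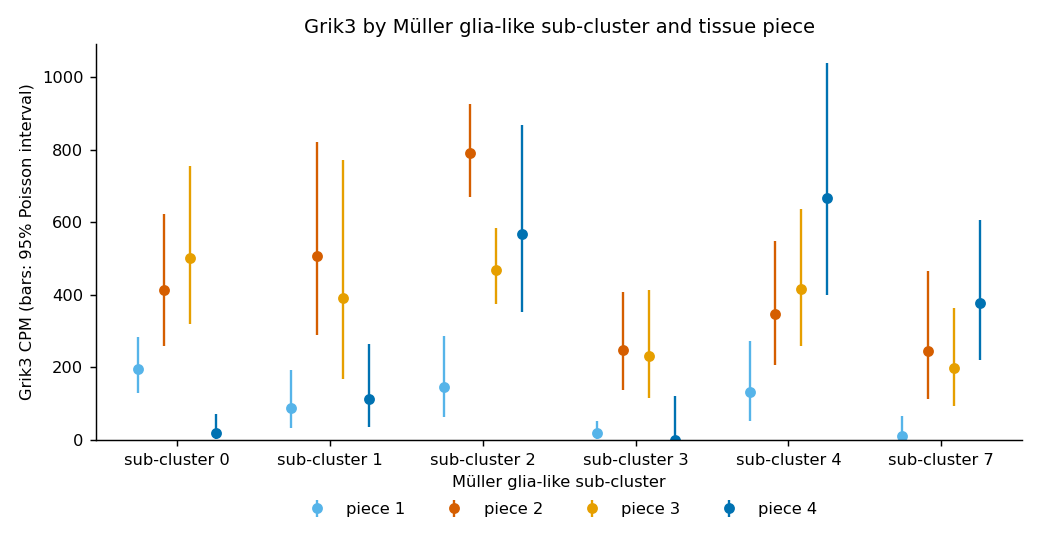
Grik3 level (CPM) in each of the 6 Müller glia-like sub-clusters that kept Müller glia as their best marker list (horizontal axis), by tissue piece (colours), with bars for exact Poisson 95% intervals. Piece 1, between 12.0 and 196 CPM, is below pieces 2 and 3 in each of the sub-clusters, and piece 4 changes place. The bar of piece 1 overlaps with that of piece 2 or 3 in sub-clusters 0, 1 and 4.

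Other measures moved with Grik3 between the pieces of Müller glia-like nuclei. Gfap, a filament gene of astrocytes and reactive Müller glia, had levels of 16.4, 622, 241 and 73.5 CPM across pieces 1 to 4, and of 10.7, 98.5, 56.5 and 35.2 CPM without the 3 sub-clusters. A2m, a protease inhibitor gene, stood at 48.0, 249, 195 and 59.9 CPM without them. Sub-cluster 2, whose leading genes included A2m and Serpina3n as well as the lens genes Mip and Cryaa, had the highest Grik3 of the 9, at 573 CPM, and held 15, 53, 49 and 11 nuclei of the pieces. The values that follow are for all Müller glia-like nuclei, the 3 sub-clusters included. The summed Müller markers, most of them Glul and Dkk3 UMIs, ran the other way, at 15095, 13552, 12765 and 15250 CPM. Sub-clusters 5, 6 and 8 stood at 6325, 6191 and 11773 CPM of this sum, against 10941 to 16702 CPM in the others. Their part in the lower sums of pieces 2 and 3 was not tested. Some markers of the Müller list were higher in pieces 2 and 3 than in piece 1. Vim, a filament gene, stood at 163, 445, 290.4 and 267 CPM and Prdx6 at 259.8, 369, 288 and 304 CPM. The transcription factor gene Sox9 stood at 268, 395, 346 and 214 CPM. For Sox9 and Prdx6 the intervals of pieces 1 and 3 overlapped. Median depth was 2957.5, 3262.5, 3275 and 2552 UMIs. The X-inactivation transcript Xist stood at 83.9, 43.7, 53.7 and 1048 CPM and so set piece 4 apart from the others, not piece 1. The labels describe a single eye, and whether all pieces came from the same animal was not tested. The part of these measures in the Grik3 result was not tested. Within each piece, left and right sides gave 82.6 and 109 CPM of Grik3 (piece 1), 452 and 453 CPM (piece 2), 418 and 306 CPM (piece 3), and 300.02 and 150.4 CPM (piece 4).

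Grik3 did not pass the same rule between pieces in the other named classes with substantial Grik3, but did in unnamed nuclei. The highest piece over the lowest gave 1.57 in retinal ganglion cell-like, 1.58 in glycinergic amacrine-like, 1.11 in GABAergic amacrine-like and 2.71 in myelinating glia-like nuclei, where 0.366, 0.107, 0.236 and 2.95% of all measured genes passed. Ganglion cell-like nuclei had 225, 179, 214 and 143 CPM in pieces 1 to 4, and myelinating glia-like nuclei 399.9, 147, 204 and 171 CPM, so in both piece 1 was the highest and not the lowest. Whether the piece pattern of Müller glia-like nuclei differed from that of these classes was not tested, since pieces are not replicates. Unnamed nuclei, which include the cluster with Müller and bipolar markers, had their highest Grik3 level in piece 2, at 129 CPM, and their lowest in piece 4, at 36.5 CPM. That ratio of 3.53 passed the rule, as 0.941% of the 13500 genes measured there did, and 5 of the 762 nuclei held 10.6% of their 538 Grik3 UMIs.

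Gria1 was the other member that passed the rule between pieces in Müller glia-like nuclei, and its level came from few nuclei. The pieces held 6, 295, 8 and 27 Gria1 UMIs, or 9.87, 561, 15.9 and 90.2 CPM, and 5 nuclei held 52.1% of the class's Gria1 UMIs. Sub-cluster 5, with 15 of its 16 nuclei in piece 2 and 14 of the 16 within 1000 coordinate units of their median position, stood at 4724 CPM of Gria1 and 622 CPM of Grik4, with 0 UMIs of Gria2, Gria3, Gria4 and Grik3. Its summed astrocyte markers stood at 4507 CPM, with Gfap at 3559 CPM and Pax2 at 637 CPM but S100b at 1 UMI. Its summed Müller markers stood at 6325 CPM, with Slc1a3, a glutamate transporter gene of both glia, at 1834 CPM and Rlbp1 at 15.5 CPM. Without sub-clusters 5, 6 and 8, Gria1 stood at 8.89, 37.5, 10.3 and 3.52 CPM in the pieces and did not pass. Sub-cluster 8, the other one with astrocyte markers, differed from it, with Grik2 at 553 CPM and Grik3 at 387 CPM and Gria1 at 27.6 CPM. Retinal ganglion cell-like nuclei made up 20.9% of the nearest neighbours of sub-cluster 8, the largest share of any class.

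The remaining differences of members between pieces that passed the rule, all in named classes, rested on few UMIs or few nuclei. Grik1 passed the rule in ON cone bipolar-like nuclei (0.250% of genes measured there passed), cone-like (0.917%), vascular-like (1.58%), fibroblast-like (2.18%) and adipocyte-like nuclei (2.78%). The top 5 nuclei held 61.8% of Grik1 UMIs in ON cone bipolar-like, 88.6% in cone-like, 87.3% in vascular-like and 76.3% in fibroblast-like nuclei. Gria1 in horizontal-like nuclei (0.787%) rested on 24 UMIs, and Gria4 and Grik2 in lens-like nuclei (1.76%) on 20 and 23 UMIs.

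Genes whose proteins bind, traffic, edit or accompany these receptors were read across the same classes. Of 42 genes in 7 lists, all were measured and 8 were called, which is 19.0% beside 10.4% of all genes, and the median ratio of the highest class to the next was 1.49 beside 1.31 for all genes. AMPA receptor auxiliary subunits, which set trafficking and gating, had 3 of 13 called. Cacng2 (stargazin) stood at 722 CPM in starburst amacrine-like nuclei, against 270 CPM in GABAergic amacrine-like nuclei. Shisa6 stood at 934 CPM in glycinergic amacrine-like nuclei, against 294 CPM in cone-like nuclei. Shisa9 was led among the named classes by Müller glia-like nuclei at 1702 CPM, against 265 CPM in glycinergic amacrine-like nuclei. Its Müller glia-like level was 1804, 1673, 1490 and 1900 CPM in pieces 1 to 4, so it did not share the piece pattern of Grik3. Outside this ranking, Shisa9 was a leading gene of 85 amacrine-like nuclei that could not be placed. Within ON cone bipolar-like nuclei, sub-cluster 1 stood at 817 CPM of Shisa9. Of the AMPA receptor assembly genes 0 of 3 were called.

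Of the 2 kainate receptor auxiliary subunit genes, Neto1 was called and Neto2 was not. Neto1, which slows kainate receptor gating, stood at 826 CPM (783 to 870) in OFF cone bipolar-like nuclei, against 35.5 CPM in glycinergic amacrine-like nuclei. OFF cone bipolar-like nuclei were also the class of highest Grik1, but sub-cluster 15 held 1196 of their 1402 Neto1 UMIs. Sub-clusters 14, 7 and 10, those of highest Grik1, had 58.4, 6.71 and 12.5 CPM of Neto1. Neto2 stood at 72.3 CPM in retinal ganglion cell-like nuclei and 66.3 CPM in GABAergic amacrine-like nuclei. Scaffolds had 2 of 7 called: Grip1, which binds AMPA receptors through PDZ domains, at 4376 CPM in GABAergic amacrine-like nuclei against 2091 CPM in glycinergic amacrine-like nuclei, and Dlg2 at 9006 CPM in rod bipolar-like nuclei against 3707 CPM in starburst amacrine-like nuclei. Grip1 and Dlg2 lost their call in 8 and 4 of 16 alternative settings. Among genes of extracellular clustering 1 of 5 was called, C1ql2, at 155 CPM in GABAergic amacrine-like nuclei against 14.6 CPM in starburst amacrine-like nuclei.

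The RNA editing genes had 0 of 3 called. Adarb1, which encodes the enzyme that edits Gria2 RNA, was highest in GABAergic amacrine-like nuclei at 824 CPM, the class of highest Gria2, and stood at 566 CPM in horizontal-like and 448 CPM in glycinergic amacrine-like nuclei. Starburst amacrine-like nuclei, whose Gria2 level overlapped with that of GABAergic amacrine-like nuclei, had Adarb1 at 162 CPM. OFF cone bipolar-like, ON cone bipolar-like and rod bipolar-like nuclei had 147, 92.6 and 81.2 CPM of Adarb1. Editing itself cannot be read from UMI counts.

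For 8 of the members the 3 genes most alike across the 20 classes were found by Pearson correlation of log2(CPM + 5) among 13175 genes, as a description of points that share 1 library and differ in depth. Kctd8, an auxiliary subunit gene of GABA-B receptors, was closest to Gria4 with r = 0.967, followed by Kcnj6 and Fut9. Cdr1os was closest to Gria2 (r = 0.935), with Actl6b and Rab3c next. Sorcs1, a sorting receptor gene, was closest to Grik3 (r = 0.930), ahead of Tafa5 and Cntn3. Gria1 was followed most closely by Cntn4 (r = 0.922), Fstl5 and Rit2, Gria3 by the scaffold gene Dlgap1 (r = 0.902), Fdft1 and Fdps, and Grik4 by Gpr153 (r = 0.906), Ogfrl1 and Cntn3. Grik2 was closest to Astn2 (r = 0.908), with the AMPA auxiliary subunit gene Cacng3 second at 0.866 and then Sema4g. Grik1 had the least close partner of these 8, Mpp2 at r = 0.809, with Sprn and the channel gene Hcn3 after it.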

How the data were processed

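Nuclei of mouse eye tissue were profiled with an expression library and a spatial-barcode library, both named T1 and without a group. The deposited matrix holds raw UMI counts per gene and barcode. Every barcode has a deposited position, in other units whose length is unstated. The submitters' processing notes name the build mm10 and the tools Seurat 4.1.1, STAR and fastp. Their roles, the annotation, and strand or intron counting are stated in no source used here.

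Nuclei with at least 200 genes and under 10% mitochondrial UMIs were kept (scanpy 1.11.5, python 3.11.15, scipy 1.17.1). Leiden clustering (2000 variable genes, 30 components, 15 neighbours, resolution 1) left out the 9 members and the 42 listed genes, and bipolar-like and amacrine-like clusters were clustered again. Classes were named from marker lists as "X-like", with naming thresholds set after seeing the data, so the names are rebuilt. CPM are pooled UMIs with exact Poisson 95% intervals, and shares carry exact Clopper-Pearson intervals; both cover counting error only. Genes under 20 UMIs were not measured. Calls across all genes were tested on simulated Poisson counts, drawn from a profile shared by all classes or pieces. These counts held no spread between nuclei, so they cannot show whether calls that rest on few nuclei are sound. The members and lists were chosen with earlier results of these data known. Named genes are all members, called list genes (up to 3 per list), and the 3 genes most alike to each member with at least 200 UMIs; the list of NMDA and delta receptor genes and the genes most alike to Grik5 are not reported here. Positions are from RefSeq's GRCm38.p6. Alternatives changed clustering, filters, depth, the rule, pieces and classes.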

Additional observations from a re-analysis of the deposited data

How the results depend on the processing

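No paired analysis was possible because the library has no groups or replicates to pair. Of 325 alternative values for 21 results, 25 moved and 21 lost the call of a gene by class. The other 279 kept their call by class or stayed near the main value, and ratios between pieces were judged by size alone. The 279 include the thinned Grik3 ratio between pieces, which did not pass the 2-times rule. Called members numbered 2 in 13 settings. They numbered 1, Grik1, after thinning to 500 UMIs, with a rule of 3 times, and with 1 bipolar and 1 amacrine class. In these 3 settings the called list genes numbered 4, 4 and 5, against 8 to 10 in the 13 others. Of all measured genes, 4.27, 6.50 and 10.9% were called in the same 3 settings, beside 10.4% in the main setting. Grip1, the closest to the threshold, lost its call in 8 settings, Dlg2 in 4, Cacng2 and Grik2 in 3, Shisa6 in 2 and C1ql2 in 1. Kept calls could change in size: the ratio for Grik1, 16.5, lay between 6.36 and 24.7, that for Neto1, 23.2, between 3.83 and 26.3, that for Shisa9, 6.42, between 3.29 and 7.99, and that for C1ql2, 10.6, between 7.61 and 37.1. Gria3 was led by GABAergic and not glycinergic amacrine-like nuclei at resolution 0.5 (ratio 0.512), where Grik3 was led by glycinergic amacrine-like nuclei (0.689) and Grik5 by the same (0.991). Gria2 was led by starburst amacrine-like nuclei after thinning (0.781). The ratio of piece 2 to piece 1 for Grik3 in Müller glia-like nuclei lay between 4.40 and 5.94 in 10 settings and was 8.00 without the top 5 nuclei of each piece; after thinning, at 4.40, it did not pass the 2-times rule. For Gria1 there the ratio was 3.52 at resolution 2, 3.69 with at least 500 genes and 3.43 with the members kept for clustering, none of which passed. The settings without the top 5 nuclei and without the Müller glia-like sub-clusters of another best list were chosen after seeing the data. The cause of these changes was not tested. Depth limits the low levels: in rod-like nuclei, with a median of 1066.5 UMIs, 9 Grik3 UMIs were found in 5862 nuclei, and free RNA was not estimated.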
